A study of Homo sapiens with 4 samples.

Results

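The 38 genes described here encode the machinery that copies DNA in S phase, with a few genes of its regulation and repair. They were chosen by function, as a list of human gene symbols, and were looked up among 36601 human features; all 38 were found. Tumours had been grown under the skin of nude mice, a strain without functional T cells, from PANC-1, an established human pancreatic ductal adenocarcinoma line. There was 1 single-cell library each for control mice, for agrimoniin, for erlotinib, and for agrimoniin with erlotinib (the combination). Agrimoniin is an ellagitannin of agrimony plants, and erlotinib inhibits the tyrosine kinase of the epidermal growth factor receptor. Doses, treatment times, mouse age and sex, what the control mice received, and whether a library pooled several tumours are not given in the labels. The design text speaks of a carrier for control and of cyranin for a drug that the labels call erlotinib; the grouping here is that of the labels. Each group is 1 library, so differences are between libraries, not shown to be between treatments, and none could be checked in a replicate.

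Every barcode held RNA of both species, so the human-gene molecules of a barcode were taken as its human part, which need not be a single cell. Levels are human molecules of a gene (unique molecular identifiers, UMIs) per 1000000 human UMIs over the kept parts of a library (CPM). A ratio of CPM carries an exact 95% interval that covers counting error only.

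Before a cell copies its DNA, the origin recognition complex with CDC6 and CDT1 loads the MCM2-7 helicase onto origins in G1. At the start of S phase CDC45 and the GINS complex join the helicase, primase and the polymerases copy both strands, PCNA clamps the polymerases to DNA, and FEN1 and LIG1 finish the lagging strand. Many of these genes are transcribed by E2F factors late in G1, and tumour cells that have lost the brake of the retinoblastoma protein use the programme heavily.

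The promoters of 7 members are printed because these genes show the range of what follows: members that were highest with erlotinib (PCNA, UHRF1, GINS1, CLSPN) or with agrimoniin (POLD2), that lay above control in all 3 treated libraries (MCM3), or in none (SLBP). Each window holds the 250 bases before and the 50 bases after an annotated start, 5′ to 3′ on the gene's strand, from RefSeq (GRCh38.p14). Where a gene has several windows, the one with the most E2F words is printed. PCNA has 2 windows and UHRF1 has 3, so their printed words need not stand at their other starts. Capitals mark E2F words (TTTCCCGC, TTTCGCGC, TTTGCCGC or TTTGGCGC) and CCAAT boxes (CCAAT), on either strand. No E2F word overlaps a CCAAT box in these windows, while the GC box counted further on can overlap an E2F word.
PCNA: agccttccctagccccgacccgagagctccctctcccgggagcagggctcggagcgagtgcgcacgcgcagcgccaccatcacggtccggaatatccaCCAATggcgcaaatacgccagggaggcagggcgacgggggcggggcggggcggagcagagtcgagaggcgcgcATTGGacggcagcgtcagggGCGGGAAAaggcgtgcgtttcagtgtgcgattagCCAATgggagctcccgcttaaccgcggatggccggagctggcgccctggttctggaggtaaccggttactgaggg
UHRF1: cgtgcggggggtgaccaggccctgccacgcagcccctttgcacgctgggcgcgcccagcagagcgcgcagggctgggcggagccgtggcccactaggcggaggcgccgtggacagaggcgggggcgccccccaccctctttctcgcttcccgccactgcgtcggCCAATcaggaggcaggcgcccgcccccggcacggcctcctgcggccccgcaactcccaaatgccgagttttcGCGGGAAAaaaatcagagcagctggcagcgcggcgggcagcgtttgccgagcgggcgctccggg
MCM3: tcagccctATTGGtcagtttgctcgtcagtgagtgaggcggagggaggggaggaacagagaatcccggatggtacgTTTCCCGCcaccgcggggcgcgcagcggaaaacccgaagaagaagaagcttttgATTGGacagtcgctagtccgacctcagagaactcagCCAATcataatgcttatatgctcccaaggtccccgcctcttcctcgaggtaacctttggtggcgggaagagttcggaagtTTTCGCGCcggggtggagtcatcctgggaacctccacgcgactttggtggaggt
CLSPN: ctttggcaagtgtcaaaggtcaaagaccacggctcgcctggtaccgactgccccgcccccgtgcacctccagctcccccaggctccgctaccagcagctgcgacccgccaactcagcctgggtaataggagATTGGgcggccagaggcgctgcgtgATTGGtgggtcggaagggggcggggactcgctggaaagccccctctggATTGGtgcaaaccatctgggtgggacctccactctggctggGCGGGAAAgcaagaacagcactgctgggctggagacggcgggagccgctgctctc
GINS1: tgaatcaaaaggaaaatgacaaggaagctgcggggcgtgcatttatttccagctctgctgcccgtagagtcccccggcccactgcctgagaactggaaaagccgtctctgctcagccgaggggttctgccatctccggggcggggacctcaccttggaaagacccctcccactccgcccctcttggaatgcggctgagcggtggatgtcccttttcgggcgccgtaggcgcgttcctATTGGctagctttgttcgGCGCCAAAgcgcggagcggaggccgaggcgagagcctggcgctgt
POLD2: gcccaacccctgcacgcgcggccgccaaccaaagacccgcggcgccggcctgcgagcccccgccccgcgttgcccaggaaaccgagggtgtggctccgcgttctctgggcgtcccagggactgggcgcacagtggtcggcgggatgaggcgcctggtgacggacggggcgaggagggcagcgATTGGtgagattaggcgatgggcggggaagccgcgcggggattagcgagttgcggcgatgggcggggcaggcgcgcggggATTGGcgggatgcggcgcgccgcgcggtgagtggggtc
SLBP: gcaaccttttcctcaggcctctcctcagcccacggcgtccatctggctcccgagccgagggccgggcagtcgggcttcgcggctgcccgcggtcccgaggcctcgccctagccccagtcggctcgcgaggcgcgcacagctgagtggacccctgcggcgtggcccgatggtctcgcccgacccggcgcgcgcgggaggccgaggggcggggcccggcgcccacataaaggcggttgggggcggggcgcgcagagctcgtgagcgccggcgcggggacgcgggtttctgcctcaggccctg

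The PCNA window lies at chr20:5126573-5126872 on the minus strand, with its E2F word 59 bases before the start. UHRF1 (chr19:4909251-4909550, plus strand) has a word 14 bases before the start. MCM3 (chr6:52284693-52284992, minus strand) has one 174 and one 4 bases before it. CLSPN (chr1:35769929-35770228, minus strand) has a word 5 bases before the start, and GINS1 (chr20:25407423-25407722, plus strand) has one 5 bases after it. POLD2 (chr7:44123499-44123798, minus strand) holds 2 CCAAT boxes and no E2F word. SLBP (chr4:1712270-1712569, minus strand) holds neither.

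Of the 38 members, 34 had a promoter in the table; MCM4, MCM5, POLD3 and RPA2 did not. An E2F word stood in the promoter of 20 of these 34 (58.8%), against 3.99% of all 27305 genes of the table and 7.21% of the 7548 that were measured here. CCAAT stood in 23 (67.6%), against 39.7% and 43.8%. The CHR element, TTTGAA or TTCGAA, which is known from genes of G2 and mitosis, stood in 2 members (5.88%), against 19.5% and 15.7%. GC boxes (GGGCGG) stood in 26 (76.5%), against 48.3% and 79.3%. A gene with several windows counts once if any holds the word, and a match describes letters, not binding.

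The 4 libraries held 202 to 306 barcodes, where the labels give a target of 8000 cells, and 193 to 292 human parts were kept. These held 2420470 human UMIs in control, 3690705 with agrimoniin, 3775711 with erlotinib and 3109510 with the combination. Median depth was 11586 to 12653 UMIs per part, human genes took 68.5% to 77.9% of all UMIs, and no barcode was shared between libraries. Control had the fewest parts, the fewest UMIs and the lowest human share. The cell line label was set beside 6 markers, the mesenchymal marker VIM and epithelial keratins and EPCAM. VIM was at 5609 to 6272 CPM, KRT8 at 36.0 to 49.2, KRT18 at 47.1 to 65.4 and EPCAM at 18.2 to 25.2. KRT7 was at 0.813 to 1.24 CPM and KRT19 at 0 to 0.53, at or near the floor of 3 counts. Of 12 markers of other human cells, 5 to 7 were at 0. COL1A1 was at 5545 to 6500 CPM and COL3A1 at 99.2 to 122, while mouse Col1a1 was at 16397 to 20826 CPM of mouse UMIs. The epithelial markers were thus low beside VIM and COL1A1, and these markers do not settle the cell line label.

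Together the 38 genes took 1265 CPM in control, 1555 with agrimoniin, 1659 with erlotinib and 1506 with the combination. The treated libraries were all above control, by 1.23-fold (1.18 to 1.28) with agrimoniin, 1.31-fold (1.26 to 1.37) with erlotinib and 1.19-fold (1.138 to 1.247) with the combination. These 3 comparisons share the control library, and their intervals leave out the spread between parts, given further on. A summed level cannot tell more cells in S phase from more of this RNA per cell. The 38 mouse orthologues, measured in the mouse UMIs of the same barcodes, took 762 CPM in control (713 to 814), 819 with agrimoniin (771 to 869), 993 with erlotinib (941 to 1047) and 819 with the combination (761 to 881). The mouse level was thus also lowest in control and highest with erlotinib, and in the barcodes with at most 1 UMI of these mouse genes, a set chosen after seeing the data, the human ratios to control were 1.195, 1.285 and 1.252. Across the barcodes of a library the human and mouse levels had Pearson correlations of -0.02 to 0.06 (193 to 292 parts).

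A mean of at least 10 CPM over the 4 libraries was reached by 34 members; CDT1, CDC45, GINS3 and E2F1 were below it. A gene was counted as higher when its CPM was at least 25% above that of the other library, and as lower when at least 20% below it. With agrimoniin 19 of the 34 were higher than control and 0 lower, where 13.6% of all 9282 measured features were higher and 9.1% lower. With erlotinib 20 were higher and 0 lower (background 14.4% and 11.2%). With the combination 12 were higher and 0 lower (background 13.6% and 11.8%). Median log2 ratios of CPM plus 10 were 0.22, 0.28 and 0.14 in that order, beside 0.03, 0.02 and 0.02 over all features. At 1.5-fold 3, 7 and 6 were higher, with backgrounds of 3.34%, 3.78% and 3.35%, and 0 were lower in each, with backgrounds of 1.93%, 2.75% and 2.78%. Control was the lowest of the 4 libraries for 22 of the 34 (background 32.2%) and the highest for 3 (background 24.8%), while erlotinib was the highest for 14 (25.2%), agrimoniin for 12 (26.0%) and the combination for 5 (24.0%). Agrimoniin was the lowest for 4 (19.1%), erlotinib for 0 (23.8%) and the combination for 8 (24.9%). The 3 members below control in all 3 treated libraries were SLBP, RRM2 and POLE, each with intervals that held 1 in all 3 comparisons. Among parts with at most 10% mitochondrial UMIs, 12 of 33 members rather than 19 of 34 were higher with agrimoniin, where 18.8% of the 9172 features measured there were.

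**Figure D1:**
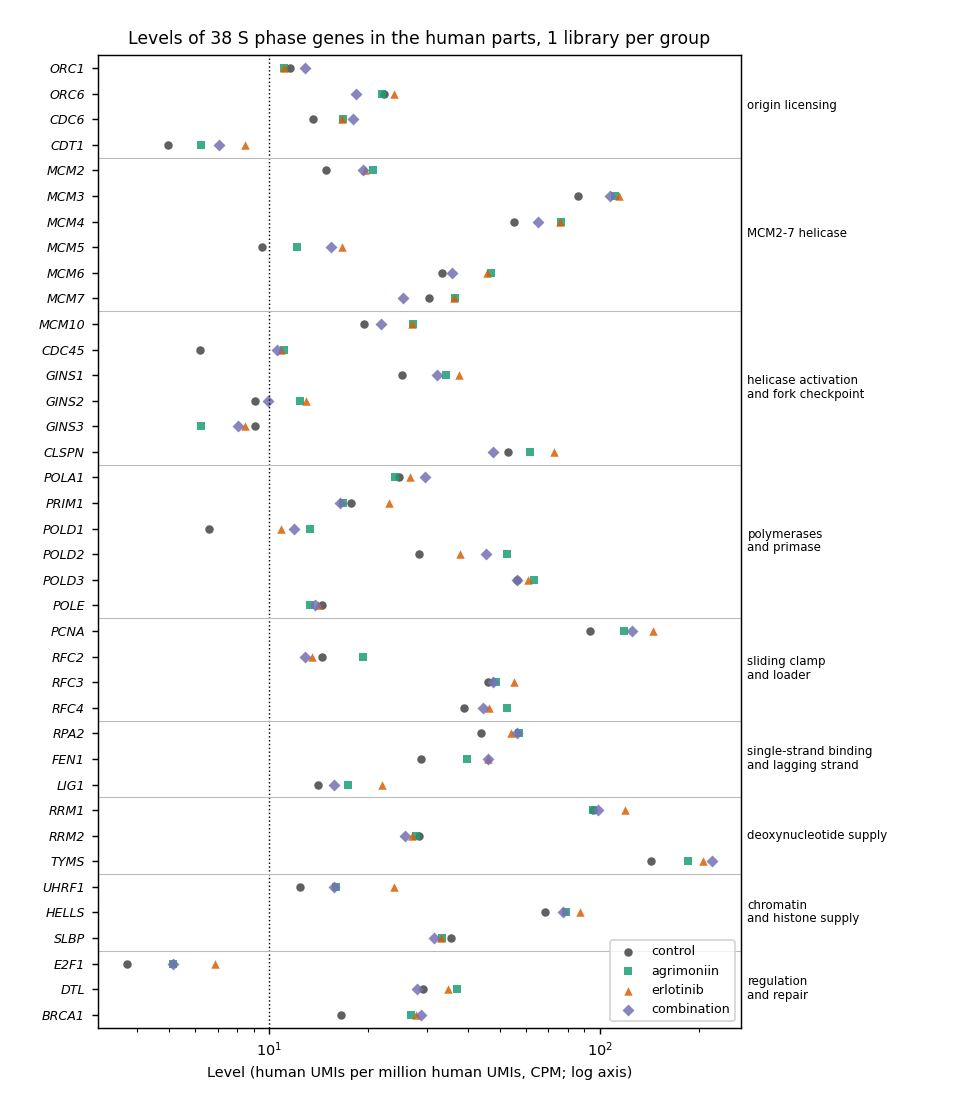
Levels of the 38 genes in CPM (log axis), grouped by role, with 1 symbol per library; the dotted line is the mean level of 10 CPM that a gene had to reach to be measured. For 22 of the 34 measured genes the control symbol is the leftmost of the 4.

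Origin licensing genes, all with low counts, showed no clear difference between the libraries. ORC6, a subunit of the origin recognition complex, was at 22.3 CPM in control, 21.9 with agrimoniin, 23.8 with erlotinib and 18.3 with the combination. CDC6, which loads the helicase together with CDT1, was at 13.6, 16.8, 16.7 and 18.0 CPM in the same order. Its largest ratio to control, 1.32 with the combination, had an interval of 0.844 to 2.10 that held 1. ORC1 stayed between 11.1 and 12.9 CPM. CDT1, below the level filter, was at 4.96 to 8.48 CPM from 12 to 32 UMIs. Summed over these 4 genes the ratios to control were 1.07, 1.15 and 1.07, all with intervals that held 1.

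The MCM2-7 helicase genes were higher with each single drug. Their sum was 230 CPM in control, 304 with agrimoniin, 308 with erlotinib and 269 with the combination. Of the 6 genes 5, 5 and 2 were higher than control by 25% or more, beside 13.6%, 14.4% and 13.6% of all measured features. The summed ratios to control were 1.32 (1.20 to 1.47), 1.34 (1.21 to 1.49) and 1.17 (1.05 to 1.3). MCM3 was at 86.3 CPM in control, 111 with agrimoniin, 114 with erlotinib and 107 with the combination. All 3 of its intervals lay above 1, with ratios of 1.29, 1.32 and 1.24. MCM5 was at 9.5, 12.2, 16.7 and 15.4 CPM. Its ratio with erlotinib was 1.76 (1.07 to 2.97), and the other 2 intervals held 1. MCM4 was at 54.9, 76.7, 76 and 65.3 CPM and MCM6 at 33.5, 46.9, 45.6 and 35.7. Both genes were near 1.4 times control with either single drug, with intervals above 1, while their combination intervals held 1. MCM7 was at 30.6, 36.6, 36.3 and 25.4 CPM, so that its combination library was the lowest of the 4. MCM2 was at 14.9 CPM in control and 19.3 to 20.6 in the treated libraries, with intervals that held 1.

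Genes that activate the helicase and guard the fork had their highest sum with erlotinib, at 170 CPM, against 122 in control, 153 with agrimoniin and 130 with the combination. CLSPN encodes claspin, an adaptor that carries the fork checkpoint signal to CHK1. It was at 52.9 CPM in control, 61.8 with agrimoniin, 72.6 with erlotinib and 47.6 with the combination. Only the erlotinib interval lay above 1 (ratio 1.37, 1.11 to 1.71). GINS1, a subunit of the GINS complex, was at 25.2, 34.4, 37.6 and 32.2 CPM. Its ratio to control was 1.49 (1.10 to 2.05) with erlotinib, and the other 2 intervals held 1. MCM10, which acts with CDC45 when the helicase starts, was at 19.4, 27.4, 27.0 and 21.9 CPM, and GINS2 was at 9.09, 12.5, 13 and 9.97. CDC45 (6.20 to 11.1 CPM, from 15 to 41 UMIs) and GINS3 (6.23 to 9.09 CPM) were below the filter.

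Of the polymerase genes POLD2 and POLD1 had agrimoniin intervals above 1. POLD2 encodes a subunit of DNA polymerase delta, the enzyme of the lagging strand, and lies on the minus strand at chr7:44114681-44124358 (GENCODE 29, GRCh38). POLD2 was at 28.5 CPM in control, 52.6 with agrimoniin, 37.9 with erlotinib and 45.3 with the combination. It was higher by 1.84-fold (1.39 to 2.46) with agrimoniin and by 1.59-fold (1.18 to 2.15) with the combination, while the erlotinib interval (0.99 to 1.80) held 1. The catalytic subunit POLD1 was at 6.61, 13.3, 10.9 and 11.9 CPM, from 16 to 49 UMIs. Its agrimoniin ratio of 2.01 (1.12 to 3.78) had an interval above 1. POLD3, a further subunit, was at 56.2, 63.1, 60.9 and 56.3 CPM, with intervals that held 1 in all 3 comparisons. POLA1 (24.1 to 29.6 CPM), PRIM1 (16.4 to 23.0) and POLE (13.3 to 14.5) also had intervals that held 1 against control. PRIM1 shares 33 bases with NACA on the same strand, a gene at 436 to 627 CPM, so its counts are uncertain.

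PCNA, the sliding clamp, lies on the minus strand at chr20:5114953-5126626. It was at 93.4 CPM in control, 118 with agrimoniin, 145 with erlotinib and 125 with the combination. All 3 intervals lay above 1, with ratios of 1.27 (1.07 to 1.49), 1.55 (1.33 to 1.82) and 1.34 (1.13 to 1.59). Mouse Pcna, at 221 to 275 CPM of mouse UMIs, was also highest with erlotinib. RFC4, a subunit of the clamp loader, was at 38.8, 52.6, 46.3 and 44.4 CPM, with an agrimoniin ratio of 1.35 (1.05 to 1.75). The loader subunits RFC3 (45.9 to 55.1 CPM) and RFC2 (12.9 to 19.2 CPM) had intervals against control that held 1.

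The 3 genes of single-strand binding and the lagging strand were each lowest in control. FEN1, the flap endonuclease that trims Okazaki fragments, was at 28.9 CPM in control, 39.8 with agrimoniin, 46.1 with erlotinib and 46.0 with the combination. Its ratios were 1.38 (1.03 to 1.86), 1.59 (1.20 to 2.13) and 1.59 (1.19 to 2.15), all above 1. Of its 4608 bases FEN1 shares 4265 with FADS2 on its own strand. FADS2 was at 38.4, 44.2, 53.0 and 44.7 CPM, also lowest in control and highest with erlotinib. Strand cannot separate FEN1 from FADS2, so the FEN1 counts are uncertain. TMEM258 overlaps FEN1 on the other strand, and whether the counting used strand was not given in the sources used here. RPA2, which coats single-stranded DNA, was at 43.8, 56.9, 54.0 and 56.3 CPM, with intervals above 1 for agrimoniin and the combination. LIG1, the ligase that joins the fragments, was at 14, 17.3, 22 and 15.8 CPM, and its erlotinib interval was the only one of 3 above 1 (ratio 1.56, 1.04 to 2.41).

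Deoxynucleotide supply split by gene. TYMS encodes thymidylate synthase, which makes the thymidine nucleotide. It was at 143 CPM in control, 185 with agrimoniin, 205 with erlotinib and 218 with the combination. Its ratios were 1.29 (1.13 to 1.47), 1.43 (1.26 to 1.63) and 1.52 (1.34 to 1.74). TYMS overlaps ENOSF1 on the opposite strand over 3255 bases; ENOSF1 was at 49.8 to 58.8 CPM. RRM1, the large subunit of ribonucleotide reductase, was at 95.4, 95.4, 119 and 99.1 CPM, and its erlotinib interval was the only one of 3 above 1 (ratio 1.252, 1.07 to 1.47). Its partner RRM2 was at 28.5, 27.9, 27.0 and 25.7 CPM, and all of its intervals held 1.

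UHRF1 guides DNA methylation to newly copied strands, and HELLS is a chromatin remodeller needed for DNA methylation. UHRF1 was at 12.4 CPM in control, 16 with agrimoniin, 23.8 with erlotinib and 15.8 with the combination. The erlotinib library stood apart, at 1.92 times control (1.26 to 3.01). HELLS was at 68.2, 79.1, 87.4 and 77.5 CPM, and only its erlotinib ratio of 1.28 (1.06 to 1.56) had an interval above 1. SLBP, which binds the stem-loop of histone mRNAs, was at 35.5, 33.3, 33.1 and 31.5 CPM, and none of its intervals excluded 1.

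Of the regulation and repair genes, BRCA1, which acts in repair by homologous recombination, was higher in all 3 treated libraries. It was at 16.5 CPM in control, 26.8 with agrimoniin, 27.8 with erlotinib and 28.9 with the combination, with ratios of 1.62 (1.11 to 2.41), 1.68 (1.16 to 2.49) and 1.75 (1.19 to 2.61). DTL, the substrate receptor of the ligase that removes CDT1 in S phase, was at 29.3, 37.1, 34.7 and 28.0 CPM, and its intervals against control held 1. E2F1, below the filter, was at 3.72 to 6.89 CPM from 9 to 26 UMIs. BRCA1 overlaps NBR2 on the opposite strand, as MCM7 does AP4M1, and HELLS overlaps TBC1D12 on its own strand, so reads there may be split between genes.

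**Figure D2:**
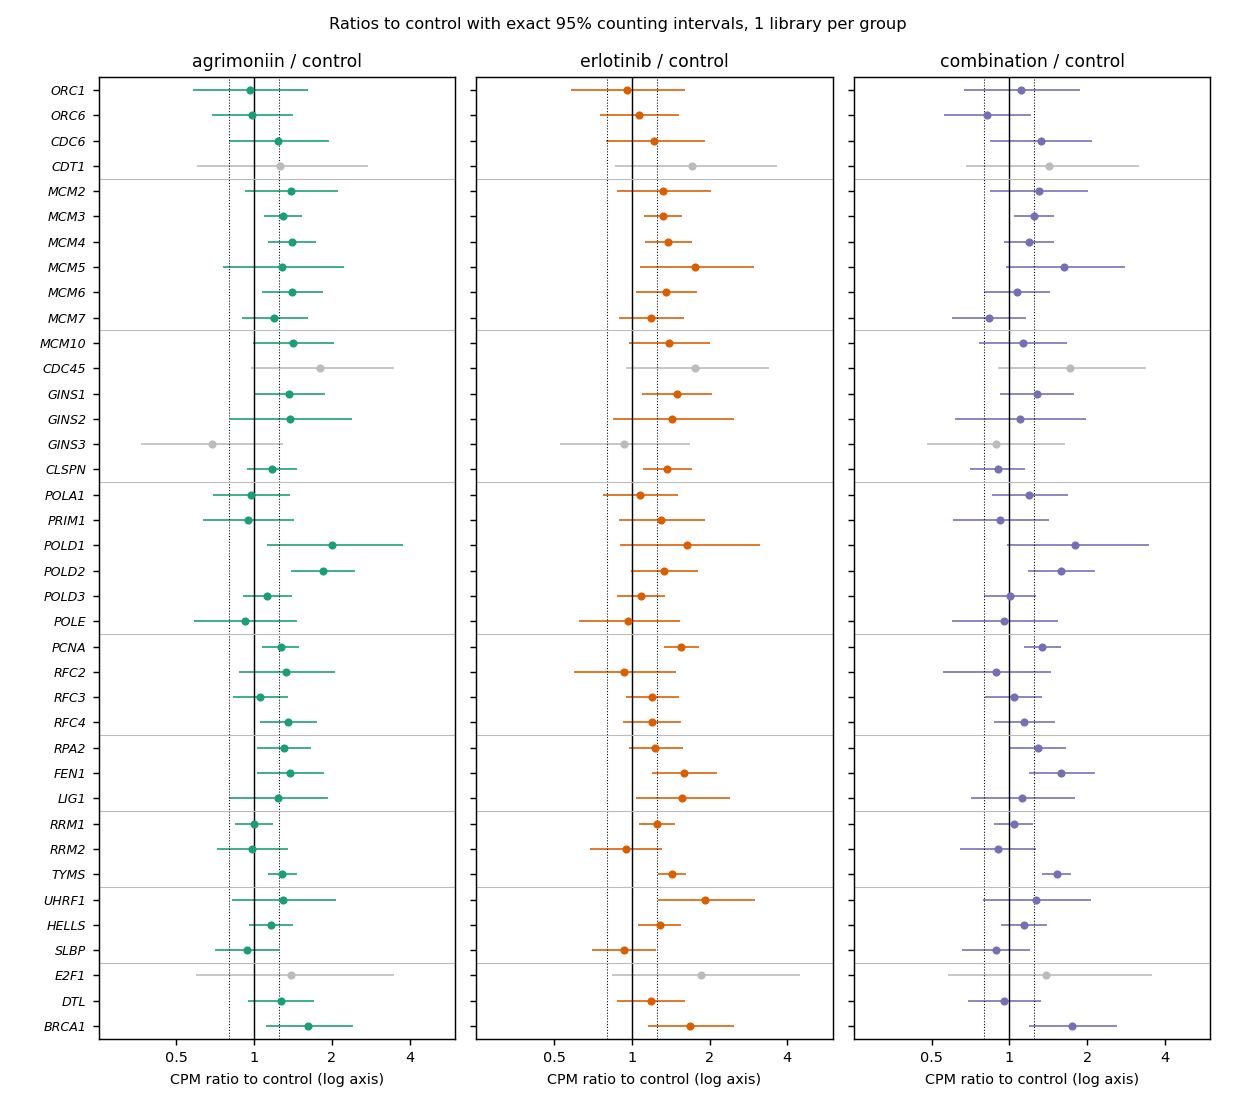
CPM ratios of the measured and unmeasured members to control (log axis) with exact 95% counting intervals, 1 panel per treated library; dotted lines mark 25% above and 20% below control. Most intervals are wide and hold 1, and those of MCM3, PCNA, FEN1, TYMS and BRCA1 lie above 1 in all 3 panels.

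The combination was set against each drug alone. Its summed level was 0.969 times that of agrimoniin (0.932 to 1.007) and 0.908 times that of erlotinib (0.874 to 0.943). Against agrimoniin 1 member was higher and 7 lower, where 8.26% of features were higher and 10.6% lower. Against erlotinib 0 were higher and 8 lower, where 9.85% were higher and 10.8% lower. At 1.5-fold 0 were higher and 0 lower than with agrimoniin (background 1.64% and 2.12%), and 0 higher and 2 lower than with erlotinib (background 2.62% and 2.28%). It was below both single drugs for 21 of 34 members (background 35.7%). CLSPN was at 0.770 times the agrimoniin level (0.622 to 0.952) and 0.656 times the erlotinib level (0.533 to 0.804). MCM7 was at 0.695 (0.519 to 0.924) and 0.700 (0.524 to 0.930) times. TYMS went the other way, at 1.18 times the agrimoniin level (1.06 to 1.32), and its interval against erlotinib (0.959 to 1.18) held 1.

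The roles differed in this comparison. The MCM2-7 sum was 0.883 times that of agrimoniin (0.806 to 0.966) and 0.871 times that of erlotinib (0.796 to 0.953). The sum of helicase activation and the fork checkpoint was at 0.849 (0.746 to 0.967) and 0.768 (0.677 to 0.872) times. Deoxynucleotide supply was at 1.11 (1.02 to 1.21) and 0.976 (0.900 to 1.06) times. The lagging strand genes were at 1.03 and 0.967 times, and both intervals held 1. The lower sums of the combination did not hold in every set of barcodes. In parts with at most 10% mitochondrial UMIs the summed ratio was 1.005 to agrimoniin (0.957 to 1.056) and 0.936 to erlotinib (0.892 to 0.982). In the barcodes with at most 1 UMI of the mouse orthologues (48 in control, 93, 83 and 111), the summed ratios were 1.05 to agrimoniin and 0.974 to erlotinib, and the medians turned positive, at 0.01 and 0.04.

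**Figure D3:**
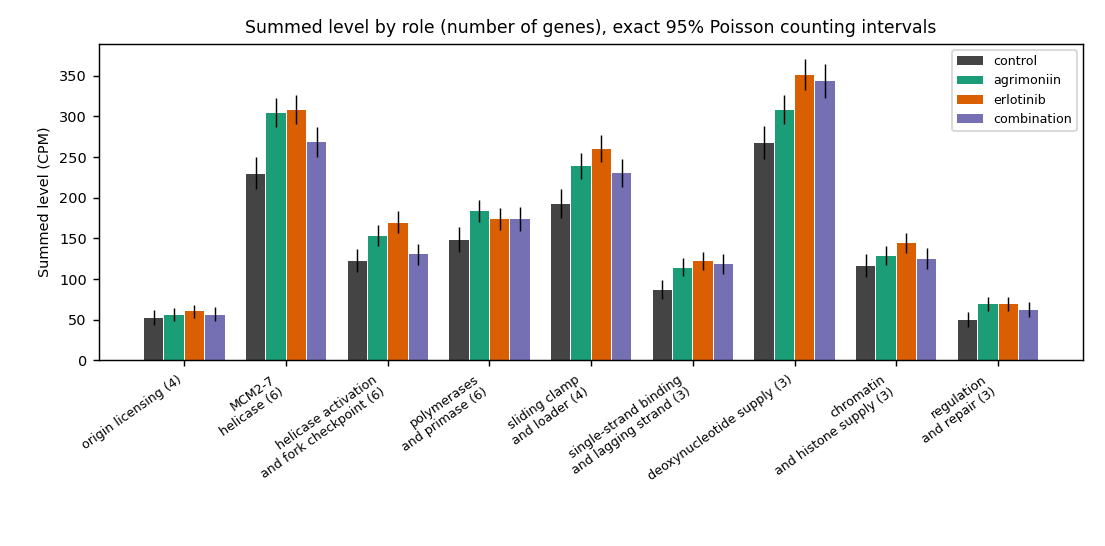
Summed level in CPM of the genes of each role in the 4 libraries, with exact 95% Poisson counting intervals. The MCM2-7 bars run from 230 in control to 308 with erlotinib, and those of helicase activation return from 170 with erlotinib to 130 with the combination.

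The genes were not spread evenly over the human parts. A score was taken as the member UMIs per 10000 human UMIs of a part. Its median was 9.24 in control (95% interval 7.91 to 10.1), 9.33 with agrimoniin (8.02 to 11.3), 11.7 with erlotinib (9.88 to 14.1) and 8.91 with the combination (7.51 to 11.1). The medians of control, agrimoniin and the combination thus lay within each other's intervals. The upper end differed more: the 75th percentile was 15.1, 20.7, 21.0 and 21.5, and the 90th was 26.0 (20.8 to 32.8), 34.3 (28.9 to 38.3), 32.6 (29.9 to 36.8) and 32.7 (28.8 to 38.7). The intervals of the 90th percentile overlap. Parts are not replicates, and these intervals cover the parts of 1 library only.

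To compare parts at equal depth, each was thinned to 5000 human UMIs, which left out 1 part with agrimoniin and 1 with erlotinib. Parts with at least 10 member UMIs made up 18.7% of control parts (36 of 193, exact 95% interval 13.4% to 24.9%). They made up 29.8% (24.5% to 35.5%) with agrimoniin, 29.6% (24.4% to 35.2%) with erlotinib and 26.5% (21.1% to 32.5%) with the combination. The number just at 10 was 7, 11, 12 and 8, and the number at 9 was 3, 8, 24 and 9. At 5 or more UMIs the shares were 51.8%, 55.7%, 60.1% and 51.4%, and at 20 or more they were 3.11%, 4.96%, 6.19% and 8.16%. The combination thus had a share like that of control at the low cut and the highest share at the high cut. Its interval at the high cut (5.06% to 12.3%) overlapped those of control (1.15% to 6.64%), agrimoniin (2.74% to 8.19%) and erlotinib (3.71% to 9.60%). Variance over mean of the thinned member count was 4.69, 5.13, 5.78 and 6.95, where sampling alone gives 1. The counting intervals of the summed levels and their ratios leave out this spread. They are thus narrower than intervals that include it, also those that lie wholly above or below 1. The top 25% of parts held 56.8%, 56.3%, 55.1% and 61.5% of all thinned member UMIs.

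**Figure D4:**
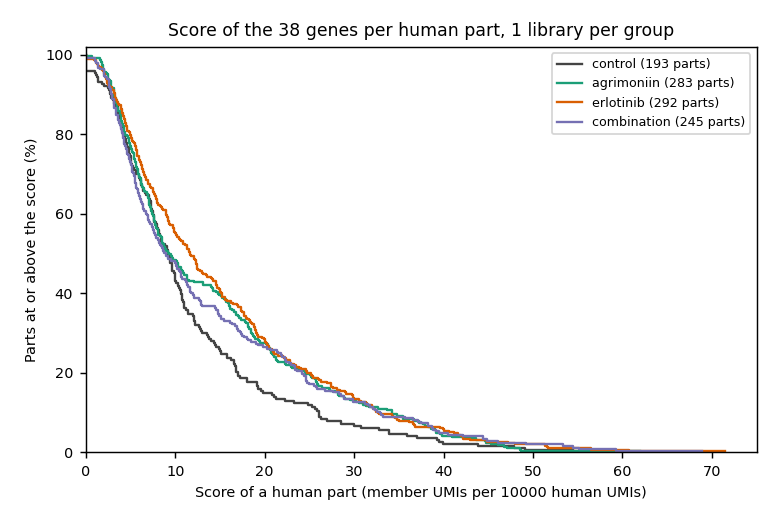
Share of human parts (%) at or above a given score, in member UMIs per 10000 human UMIs of a part, with 1 line per library. The control line lies below the treated lines over most of the upper range, with its 90th percentile at 26.0 against 32.6 to 34.3.

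A single member was detected in only some of the parts. For TYMS the share with at least 1 UMI after thinning was 38.3% in control (31.5% to 45.6%), 37.9% with agrimoniin (32.3% to 43.9%), 43.6% with erlotinib (37.9% to 49.6%) and 44.5% with the combination (38.2% to 51.0%); unthinned it was 54.4%, 50.9%, 57.9% and 58.4%. The order of agrimoniin and control turned with the thinning depth, since at 3000 UMIs the TYMS shares were 29% and 25.9%, and their intervals overlap at both depths. For PCNA the thinned share was 28.5% (22.2% to 35.4%), 36.9% (31.2% to 42.8%), 42.3% (36.5% to 48.2%) and 32.2% (26.4% to 38.5%), and unthinned it was 46.6%, 60.8%, 63.7% and 54.7%. No human cell type that should lack these genes was at hand, so the share that free RNA gives could not be set beside them.

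How closely a gene follows the rest was measured as its thinned UMIs in the top 25% of parts over those in the bottom 25%, ranked within each library by the other members (255 parts in each). BRCA1 had 85 UMIs in the top 25% and 2 in the bottom 25%, a ratio of 42.5 (11.4 to 357). MCM10 stood at 24.3, PRIM1 at 20.7, RRM2 at 16.6 and UHRF1 at 14, CLSPN at 12.2, TYMS at 9.60 (7.20 to 13) and PCNA at 6.56 (4.86 to 9.02). At the other end were SLBP at 1.74 (1.13 to 2.72), POLD2 at 1.74 (1.18 to 2.60), POLA1 at 1.90 and POLD3 at 2.13. The ratio is unstable where the bottom 25% holds few UMIs. By Pearson correlation with the other members (median of the 4 libraries) the order differed. TYMS was at 0.50, PCNA at 0.38, CLSPN at 0.36, BRCA1 at 0.29 and RFC2, the lowest, at 0.06. Genes of G2 and mitosis, ranked by the same members, ran from 1.66 (CKS2) to 29.3 (TOP2A) and 49.5 (CDK1). A high ratio thus does not mark S phase genes alone. All of these values share library and depth, and no test was made.

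The contrast was then set beside the differences between libraries. RRM2 and PRIM1 had high contrasts and intervals against control that held 1. POLD2 had a low contrast and an agrimoniin ratio of 1.84. For the counts that follow, 13.6%, 14.4% and 13.6% of all measured features were higher with agrimoniin, erlotinib and the combination. Of the 22 members with a contrast of 5 or more, 13, 14 and 8 were higher than control with agrimoniin, erlotinib and the combination, at medians of 0.22, 0.29 and 0.16. Of the 9 members from 2 to under 5, 5, 5 and 3 were higher, at medians of 0.26, 0.30 and 0.07. Of the 3 members under 2, 1 was higher in each, at medians of -0.03, 0.08 and 0.19. Genes of the other replication, repair and cell cycle lists, described next, were counted in the same way. Of the 45 with a contrast of 5 or more 13, 13 and 8 were higher, at medians of 0.15, 0.15 and 0.05. Of the 25 from 2 to under 5 these counts were 5, 8 and 4, at medians of 0.10, 0.08 and -0.03, and of the 29 under 2 they were 3, 5 and 3, at medians of -0.03, 0.01 and -0.00. In these lists the single-drug medians were thus higher in the bins of higher contrast.

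**Figure D5:**
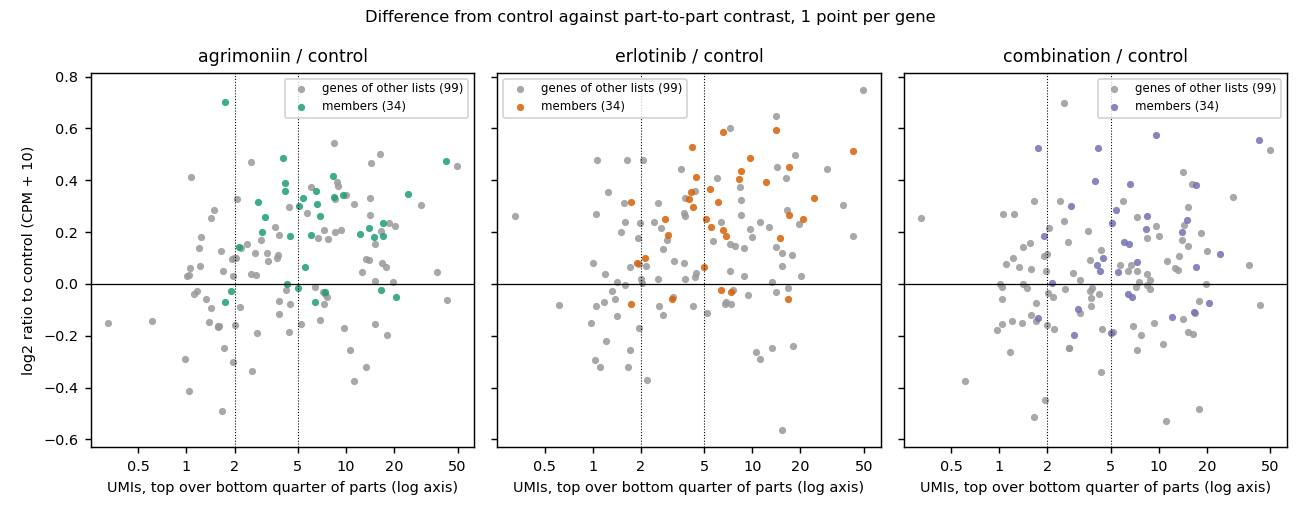
Log2 ratio to control (CPM plus 10) against the ratio of UMIs in the top 25% over the bottom 25% of parts (log axis), 1 point per gene and 1 panel per treated library. Members with contrasts under 2 (SLBP, POLD2, POLA1) and above 10 are found at both high and low log2 ratios.

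Members were also counted by whether their promoter held an E2F word. With erlotinib 11 of 17 measured members with a word and 7 of 13 without were higher than control, at medians of 0.32 and 0.25. With agrimoniin 9 of 17 and 7 of 13 were higher, at medians of 0.21 and 0.26. With the combination 6 of 17 and 4 of 13 were higher, at medians of 0.16 and 0.08. Over all measured features 14.4% were higher with erlotinib, 13.6% with agrimoniin and 13.6% with the combination.

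Other genes of replication and the cell cycle were counted in lists of their own, drawn up by function. Over all measured features 13.6%, 14.4% and 13.6% were higher than control with agrimoniin, erlotinib and the combination. The shares that were lower were 9.1%, 11.2% and 11.8%. Of 13 other licensing and firing genes, 1, 3 and 1 were higher and 1, 2 and 2 lower than control with agrimoniin, erlotinib and the combination, and their summed ratios were 0.985, 1.02 and 0.942. TICRR, which brings firing factors to origins, was at 9.5, 12.5, 13.8 and 7.08 CPM, and CDC7, the kinase that phosphorylates MCM proteins, at 25.2, 28.7, 17.2 and 21.2. TICRR was lowest with the combination, at 0.514 times the erlotinib level (0.297 to 0.861). It was named for the highest erlotinib ratio of its list, which favours a low value in this comparison. It thus adds nothing to what CLSPN showed. The sum of the 13 genes was 0.925 times the erlotinib level (0.869 to 0.985). Of 12 other polymerase, clamp loader and RPA genes 1, 2 and 1 were higher and 2, 0 and 1 lower, with summed ratios of 0.955, 1.02 and 0.956. PCLAF, which binds PCNA, was at 78.5 CPM in control and 63.8 to 65.3 in the treated libraries, opposite to PCNA itself. POLE2 was at 21.1, 18.7, 27.3 and 19.3 CPM.

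The other nucleotide supply genes had summed ratios to control of 0.915, 1.00 and 0.968, and the other chromatin replication genes of 0.958, 0.957 and 0.841. DCK, a salvage kinase, was at 13.6, 22.8, 19.3 and 28.3 CPM. NASP, a histone chaperone, was at 253, 203, 223 and 183 CPM, and ATAD2 at 74.4, 91.9, 84.5 and 78.8. The NASP ratios to control were 0.804 (0.721 to 0.896), 0.883 (0.795 to 0.982) and 0.722 (0.643 to 0.811).

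Of 13 other repair and fork protection genes 4, 3 and 2 were higher than control and 0, 1 and 1 lower. The background here and for the next list was 13.6%, 14.4% and 13.6% higher and 9.1%, 11.2% and 11.8% lower. Of 19 G1/S regulators 4, 8 and 5 were higher and 2, 3 and 1 lower, with summed ratios of 1.07, 1.15 and 1.12. E2F4, a repressor of the family, was at 41.3, 58.3, 61.4 and 51.8 CPM, and RBL2, its pocket protein partner, at 47.1, 45.5, 35.8 and 50.2.

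The 30 genes of G2 and mitosis differed less in sum than the S phase genes. Their ratios to control were 1.08 (1.05 to 1.12) with agrimoniin, 1.10 (1.07 to 1.14) with erlotinib and 0.992 (0.959 to 1.03) with the combination, beside 1.23, 1.31 and 1.19 for the 38 members. Past the same limits 9, 8 and 5 of the 30 were higher (background 13.6%, 14.4% and 13.6%) and 1, 1 and 3 lower (background 9.1%, 11.2% and 11.8%). Control was the lowest library for 17 of the 30 (background 32.2%), beside 22 of the 34 members. The combination was below both single drugs for 17 of the 30 (background 35.7%), beside 21 of the 34 members. Its G2 and mitosis sum was 0.916 (0.889 to 0.944) times that of agrimoniin and 0.902 (0.876 to 0.929) times that of erlotinib. These orders were thus not particular to the S phase genes. CDK1 was at 33.5, 49.6, 63.0 and 52.1 CPM, and CKS2, which binds CDK1, was at 252, 176, 200 and 173. Across parts the thinned counts of the 38 members and of the 30 genes had Pearson correlations of 0.60 in control, 0.57 with agrimoniin, 0.53 with erlotinib and 0.66 with the combination (193, 282, 291 and 245 parts).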

How the data were processed

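Gene counts (UMIs per gene and barcode, whole numbers, not normalised) were deposited by the authors. Cells came from collagenase digestion of the tumours and a Chromium 3 prime kit, per the labels' protocols. The submitters' processing notes name Cell Ranger with hg38 and mm10; its version, and how barcodes were selected, are not given in the sources used here. Each barcode has 27 bases, which is not the layout of that kit, so the platform is in doubt.

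Kept human parts had 500 UMIs or more, 250 genes or more, and no more than 25% mitochondrial UMIs, and no doublet caller was run. UMIs were summed per library and scaled to CPM. Ratios have exact intervals conditional on the sum of both counts, levels exact Poisson intervals, and shares exact Clopper-Pearson intervals, all at 95%. PCR copies are collapsed by UMI, and intervals cover counting error only. A pseudocount of 10 CPM was added before log2 ratios, which understates differences of low genes. Parts were thinned with a fixed seed. Ratios and their intervals were tried on simulated Poisson counts without spread between parts. That trial cannot show how the intervals do with such spread. Python 3.11.15, numpy 2.4.6, scipy 1.17.1 and pandas 2.3.3 were used. Positions are from GENCODE 29, in which 34616 of 36601 human features were found.

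Members, lists and cuts were chosen with earlier results of these data known. Within each of 9 roles the member with the highest mean level and the one with the largest log2 ratio to control were described in full, and in each of the other lists the genes with the highest and the lowest log2 ratio with erlotinib; further members were named after their values were seen, and a few genes that this rule names are not reported here. Alternatives were another fold, filter, pseudocount, normalisation, denominator, weighting, depth, thinning depth, mitochondrial limit and human share, and, after seeing the data, barcodes with few mouse orthologue UMIs.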

Additional observations from a re-analysis of the deposited data

How the results depend on the processing

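The summed ratios to control stayed above 1 under all 7 alternatives run for each, at 1.14 to 1.24 for agrimoniin, 1.23 to 1.36 for erlotinib and 1.15 to 1.252 for the combination. Library, depth and group cannot be told apart with 1 library per group, and 20 of 38 members were under 30 CPM on average, where intervals are widest. No paired analysis was possible because each group has 1 library.

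Parts with at most 10% mitochondrial UMIs (94, 150, 168 and 145) gave summed ratios of 1.14 for agrimoniin and 1.23 for erlotinib. The combination sum there was 1.005 times that of agrimoniin (0.957 to 1.056) and 0.936 times that of erlotinib (0.892 to 0.982). The members higher with agrimoniin numbered 12 and those lower than control 1, 2 and 4, while 4 and 2 were higher with the combination than with agrimoniin and erlotinib. Of all features measured there, 18.8% were higher with agrimoniin, 13.4%, 14.4% and 14.8% lower than control, and 12.2% and 13.4% higher with the combination than with the single drugs. Barcodes with at least 75% human UMIs (66, 149, 153 and 163) gave a sum of 0.873 for the combination against erlotinib. There 3 members were lower than control with agrimoniin and 4 with the combination, and 3 and 1 were higher with the combination than with agrimoniin and erlotinib, beside 14.5%, 15.4%, 11.7% and 13.4% of all features.

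Barcodes with at most 1 UMI of the mouse orthologues, a set chosen after seeing the data, reversed the medians of the combination against agrimoniin (0.0115) and erlotinib (0.0387). Its summed ratios were 1.252 to control, 1.05 to agrimoniin and 0.974 to erlotinib, and medians against control were 0.22 for erlotinib and 0.24 for the combination. Of 35 members 3, 6 and 6 were lower than control, beside 20%, 23.4% and 22.5% of all features. With the combination 6 were higher and 4 lower than with agrimoniin (16.1% and 18.9% of features), and 4 higher and 2 lower than with erlotinib (17.9% and 17.2%). The cause was not tested, and far fewer parts are left.

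A fold of 1.5 left 3, 7 and 6 members higher than control, 0 higher and 0 lower for the combination against agrimoniin, and 2 lower against erlotinib. A mean of at least 50 CPM left 9 members: 5, 7 and 3 were higher than control at medians of 0.31, 0.37 and 0.21, and 7 were lowest in control. For the combination, 0 were higher and 1 lower than with agrimoniin, and 1 lower than with erlotinib at a median of -0.15. A pseudocount of 1 CPM gave medians of 0.33 for agrimoniin and 0.37 for erlotinib. Without a filter 1 member was lower with agrimoniin than in control and 2 were higher with the combination than with agrimoniin. With equal weight for each part 1 was higher with the combination than with erlotinib. The share over all features is not given here for the 50 CPM, no-filter and equal-weight settings. Their counts thus have no background beside them. At 3000 UMIs per part the shares of parts with a TYMS UMI were 25.9%, 29%, 34.4% and 34.7%, and those with a PCNA UMI 19.7%, 23.7%, 27.5% and 26.1%. All 8 shares were lower than at 5000 UMIs, TYMS with agrimoniin moved from below to above control, and PCNA with the combination from below to above agrimoniin.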
